A study of Mus musculus with 8 samples.

Results

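Regulatory T cells (Treg) of expanded clones were compared with Treg cells whose T cell receptor was found in 1 cell only, in brain tumors of a mouse model of ependymoma. The receptor library labeled mavrilimumab 2 held 4017 cells with exactly 1 productive alpha and 1 productive beta chain, in 2275 clones. A clone was a set of cells with the same CDR3 bases and the same V and J segments in both chains. A Treg cell had at least 1 Foxp3 UMI (a unique molecular identifier, that is 1 captured transcript), no Cd8a or Cd8b1 UMI, at least 1000 UMIs and at most 10% mitochondrial UMIs. An expanded clone held at least 4 cells, counted over all T cells with a paired receptor. These limits left 487 Treg cells in 237 clones, of which 248 cells in 31 clones were expanded, 160 cells in 160 clones were single, and 79 cells in 46 clones came from clones of 2 or 3 cells. The 408 cells of the expanded and single classes were part of the 5989 paired T cells found in expression data over the series. The cells were chosen by their Foxp3, Cd8a and Cd8b1 counts and by clone size, so none of these is tested below.

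All mice carried NestinCreERT2;Fus1;RFPTdT, a tamoxifen-inducible Cre driven by the neural progenitor gene Nestin, the ZFTA-RELA fusion and a red fluorescent reporter. They were randomized at 3 weeks of age to 1 intrathecal injection of mavrilimumab (5 mg/kg), which blocks GM-CSF receptor alpha, or of a control antibody (vehicle IgG). Tumors were harvested at 6 to 8 weeks, as endpoint or recurrent tumors, and extravascular leukocytes were sorted as cells positive for CD45 and negative for the erythroid marker Ter119. Tumors of several mice were pooled per group, the files do not tie a cell to a mouse, and how many tumors entered each library was not given, so the clones described cannot be told apart by animal. The receptor library labeled mavrilimumab 2 shared 5035 of its 5659 cell barcodes with the expression library labeled mavrilimumab 1, 66 with that labeled vehicle IgG 2, 9 with that labeled mavrilimumab 2 and 2 with that labeled vehicle IgG 1. The sample name inside the receptor table is that of a vehicle sample, against its label. The treatment of these mice is therefore uncertain, and every comparison below was made within these paired libraries, between clones and not between treatments or animals. The expression library held 35785802 UMIs. No Treg cell had a UMI of a Y-linked gene, and 66.1% had an Xist UMI.

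Foxp3 is the transcription factor that sets the Treg program, and Treg cells restrain other immune cells in part through CTLA-4, through the high-affinity IL-2 receptor and through inhibitory cytokines. In lymphoid organs resting Treg cells keep recirculation receptors such as the egress receptor S1PR1, which the factor KLF2 maintains. In tissues and tumors Treg cells lose these and take up effector and residency molecules such as CCR8 and the integrin CD103, and an antigen seen through a shared receptor can expand a clone.

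Treg cells were unevenly spread over the expanded clones. Clone size ran from 4 to 71 cells with a median of 7, and a clone held 1 to 51 Treg cells with a median of 4. The 7 clones with most Treg cells gave 162 of the 248 cells (65.3%), and the largest alone gave 20.6%. Of the 441 cells of these 31 clones that passed the limits, 248 were Treg, 153 had neither a Foxp3 nor a Cd8 UMI, and 40 (9.07%) had a Cd8 UMI, 28 of these together with Foxp3. Treg cells made up 14.3% to 100% of a clone's passing cells, with a median of 61.9%, and in 24 of 31 clones they were no fewer than the clone's other passing cells together. The second-largest clone had 15 Treg cells among 63 passing cells, against 51 of 69 in the largest and 33 of 43 in the one ranked next.

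**Figure D1:**
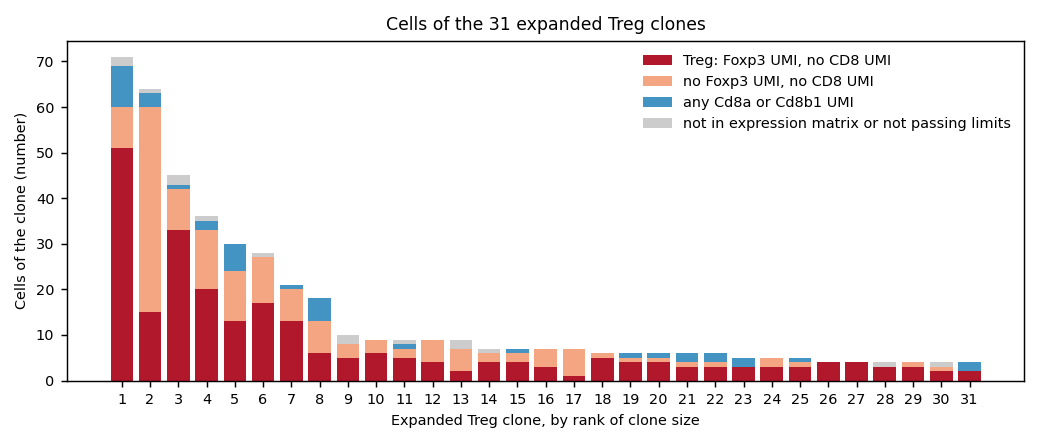
Cells of each of the 31 expanded clones with a Treg cell (x axis, clones ranked by size; y axis, number of cells), split into Treg cells, cells with neither Foxp3 nor Cd8 UMI, cells with a Cd8 UMI, and cells not in the expression matrix or not passing the limits. Treg cells were the most numerous kind in the largest clone (51 of 69 passing cells) but not in the second-largest (15 of 63).

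The cells carried Treg transcripts in both classes. Levels are given as CPM (the UMIs of a gene scaled to a common library total, as counts per 1e6 UMIs), pooled over the cells of a class. Foxp3 stood at 776 CPM in expanded and 725 CPM in single Treg cells, and 29.0% and 30.6% of the cells passed the rule with 1 Foxp3 UMI. As a background, 17 of 1478 cells with at least 2 Cd8 UMIs had a Foxp3 UMI (1.15%, exact 95% interval 0.671 to 1.84, median depth 4495 UMIs), against 487 of 2127 cells without a Cd8 UMI (22.9%, 21.1 to 24.7, median depth 3320 UMIs). Ikzf2, which encodes the Treg factor Helios, stood at 1749 and 1538 CPM in expanded and single Treg cells and at 103 CPM in the cells with Cd8 UMIs. The 153 cells of the expanded clones with neither Foxp3 nor Cd8 UMI had Ikzf2 at 1949 CPM, against 394 CPM in expanded and 261 CPM in single conventional CD4 clones, that is cells with a Cd4 UMI and no Cd8 UMI from clones with no Foxp3 UMI in any cell. In these same cells Cd40lg, the helper ligand of conventional CD4+ cells, stood at 58.3 CPM, between the Treg cells (9.29 CPM) and the conventional clones (155 and 168 CPM).

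Median depth was lower in expanded than in single Treg cells. Expanded Treg cells had a median of 2877.5 UMIs per cell (lowest 1074, highest 26392) and single ones 3429.5 (1085 to 23338). The mean of log2 UMIs per clone was 11.58 ± 0.35 (SD, n = 31) against 11.79 ± 0.68 (n = 160), a difference of -0.21 (two-sided permutation test over clones, p = 0.0939). Counting clones of at least 2 cells as expanded, the difference was -0.18 (permutation test, p = 0.0404). A single clone's value was 1 cell and a larger clone's a mean over its Treg cells, so their spreads differed. The permutation takes the classes as alike in spread, so these p-values are approximate and do not show equal depth. Mitochondrial shares (medians 1.31% and 1.32%) and receptor contig UMIs (alpha 12.5 and 12, beta 16 and 16) were close.

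The receptors of the expanded Treg clones used 1 beta V segment more often. TRBV16 was found in 8 of 31 expanded clones (25.8%, exact 95% interval 11.9 to 44.6) and in 8 of 160 single clones (5.00%, 2.18 to 9.61; Fisher's exact test, two-sided, p = 0.00103, Benjamini-Hochberg adjusted over the 11 V segments with at least 10 clones 0.0113). None of the other 10 segments passed, the next being TRBV12-1 with 0 of 31 against 12 of 160 clones (exact p = 0.221, adjusted 0.819). Clones of 2 or 3 cells with a Treg cell had TRBV16 in 2 of 46, and with these counted as expanded the adjusted value was 0.299. Over the whole receptor library 127 of 2275 clones (5.58%) used TRBV16. CDR3 lengths did not set the classes apart, with medians of 39 bases for alpha and 42 bases for beta chains in both.

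Among these 8 clones TRBV16 was joined to the alpha J segment TRAJ12 in 6, each with an arginine codon at the junction of V and J, which can itself hold bases of TRAJ12. This combination was seen in the data and is given as a description, with no test. It occurred in 6 of 31 expanded Treg clones (19.4%, exact interval 7.45 to 37.5), in 0 of 46 clones of 2 or 3 cells with a Treg cell, in 0 of 160 single Treg clones (3 counts of 160 are 1.88%, and the exact upper limit is 2.28%), in 0 of 41 expanded and 0 of 537 single conventional CD4 clones, and in 1 of 70 expanded clones of cells with at least 2 Cd8 UMIs (1.43%), a clone that also held Treg cells. The whole library held 8 such clones among 2275, and the receptor library labeled mavrilimumab 1 held 0 among 1639. Those outside the 6 expanded Treg clones were clones of 2 cells with no Foxp3 UMI. In that with TRAV13N-2, 2 of 2 passing cells had a Cd4 UMI and 0 a Cd8 UMI, so the combination was not confined to Treg clones. In that with TRAV9N-4 the 1 passing cell had neither a Cd4 nor a Cd8 UMI. The 6 expanded Treg clones shared neither an alpha V segment throughout nor a beta CDR3. Their CDR3 sequences are printed from the deposited contigs, 5′ to 3′, because they show what is shared and what is not: capitals mark the arginine codon in the alpha chain, at codon 5, and the bases between the V and J matches in the beta chain.
71-cell clone, TRAV9N-3 alpha: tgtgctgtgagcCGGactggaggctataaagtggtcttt
71-cell clone, TRBJ2-4 beta: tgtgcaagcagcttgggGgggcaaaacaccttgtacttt
10-cell clone, TRAV9N-4 alpha: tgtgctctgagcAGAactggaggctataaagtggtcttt
10-cell clone, TRBJ2-4 beta: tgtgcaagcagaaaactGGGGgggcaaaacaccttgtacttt
6-cell clone, TRAV7-4 alpha: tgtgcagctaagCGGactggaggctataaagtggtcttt
6-cell clone, TRBJ2-4 beta: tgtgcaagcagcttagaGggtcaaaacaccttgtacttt
5-cell clone, TRAV7D-2 alpha: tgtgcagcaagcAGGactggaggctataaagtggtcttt
5-cell clone, TRBJ2-7 beta: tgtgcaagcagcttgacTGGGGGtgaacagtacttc
4-cell clone, TRAV4-3 alpha: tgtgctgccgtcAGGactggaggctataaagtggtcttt
4-cell clone, TRBJ1-3 beta: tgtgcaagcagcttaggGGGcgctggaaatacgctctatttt
Other 4-cell clone, TRAV9-2 alpha: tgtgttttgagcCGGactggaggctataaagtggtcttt
Other 4-cell clone, TRBJ1-1 beta: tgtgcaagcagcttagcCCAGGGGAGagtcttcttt

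All 6 alpha CDR3s were 39 bases long, and the arginine codon was written as CGG, AGA or AGG. The bases after it were identical, but TRAJ12 and the way the combination was found set this. A 7-cell Treg clone with TRBV1 and TRAJ12 but no such arginine codon ended in the same bases. The beta CDR3s were 36 to 42 bases long and used 4 J segments. The clones held 51, 5, 3, 3, 3 and 4 Treg cells, so outside the largest clone the combination stood in few cells. The next-largest TRBV16 clone, of 36 cells, had TRAJ9 instead.

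**Figure D2:**
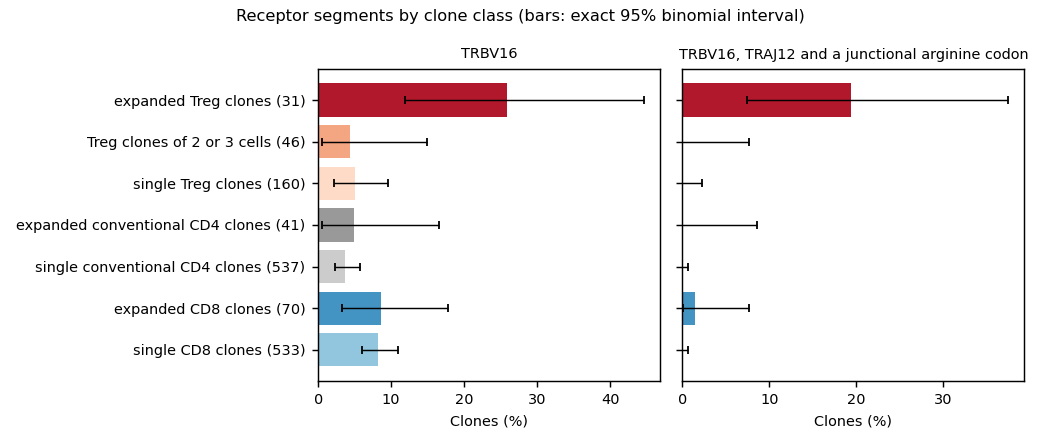
Percent of clones (x axis) using TRBV16, on the left, and TRBV16 with TRAJ12 and an arginine codon at the alpha junction, on the right, in Treg, conventional CD4 and CD8 clones by size (y axis, number of clones in parentheses; CD8 means cells with at least 2 Cd8 UMIs; bars with exact 95% intervals). Expanded Treg clones stand at 25.8% and 19.4%, against 5.00% and 0 in single Treg clones.

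Gene expression differed between expanded and single Treg clones for a small set of genes. Some genes of lymphocyte recirculation and of the resting state were lower in expanded clones, and some checkpoint, residency, receptor signaling and proliferation genes were higher. UMIs were summed over the Treg cells of each clone and tested with the edgeR quasi-likelihood test, with Benjamini-Hochberg adjustment over the 7807 genes found in at least 5% of Treg cells. At an adjusted p below 0.05, 98 genes (1.26%) were called, 63 higher (0.807%) and 35 lower (0.448%) in expanded clones. The median log2 fold change of all tested genes was 0.01. A likelihood ratio test in edgeR was added because the quasi-likelihood test called some unchanged genes on simulated counts. With a count dispersion estimated per gene, it called 34 of these 98 (0.436%), 18 higher and 16 lower, and no other gene. Where every clone weighed the same (limma on clone means of log-scaled counts) 0 genes passed. There 113 had an unadjusted p under 0.05, against 746 by the quasi-likelihood test. The 113 are below 5% of the 7807, the share that this limit passes where no gene changes. All 98 kept their direction, but they had been picked from the same counts, so this is no separate support. These p-values measure the spread between clones of 1 library, not between mice. In the text a gene is called when it passed the quasi-likelihood test, and its adjusted p under the likelihood ratio test follows.

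**Figure D3:**
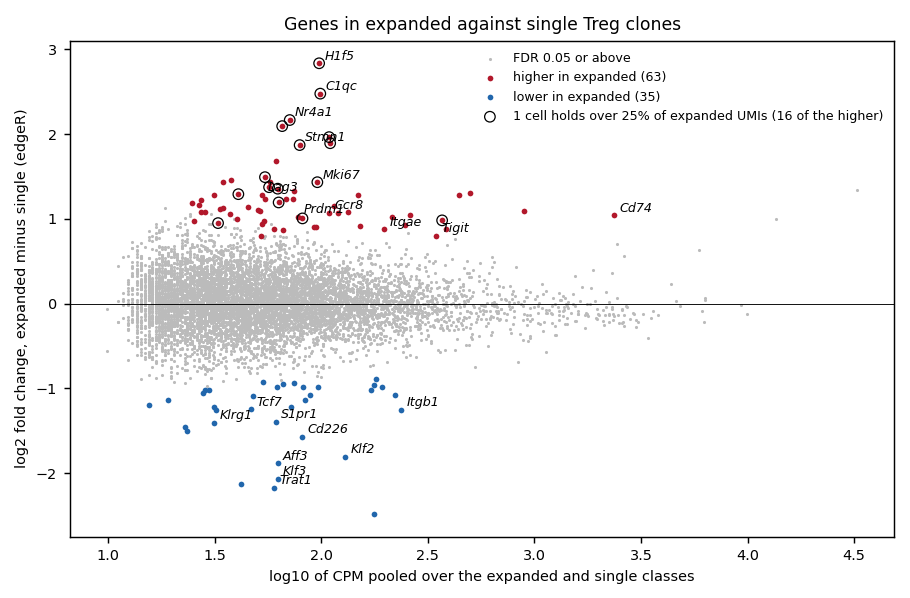
Log2 fold change of expanded over single Treg clones (y axis) against the pooled level (x axis, log10 of CPM) for the 7807 tested genes, with the 63 higher genes in red, the 35 lower in blue and rings where 1 cell holds over 25% of a gene's UMIs in expanded clones. Rings sit on 16 of the higher genes, H1f5, C1qc, Nr4a1, Stmn1 and Mki67 among them.

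Several recirculation and resting-state genes were lower in the expanded clones. Of 18 genes listed for resting or central Treg cells, 12 were tested, 5 were lower (4 by the likelihood ratio test), 0 were higher and none had a fold change above zero. Their median log2 fold change was -0.77, against 0.01 over all tested genes. Like the other lists below, this list was chosen with earlier results of these data known. Its counts and median are therefore a description and no test of the list. Klf2, the zinc-finger factor that maintains the egress program, stood at 58.9 CPM in expanded, 139 CPM in clones of 2 or 3 and 233 CPM in single Treg cells. Across expanded clones Klf2 ran from 0 over a median of 23.7 to 252 CPM, and across single clones from 0 over a median of 0 to 4476 CPM, so the classes overlapped. Medians over clones and counts of clones with a UMI depend on cells per clone, since a single clone has only 1 cell, and are no measure of the difference. Its log2 fold change was -1.80 ± 0.32 (SE; adjusted p = 2.06e-05, likelihood ratio 0.00697), and 13.7% of expanded against 33.1% of single cells had a UMI (5.24% and 18.8% after each cell was thinned to 1000 UMIs). S1pr1, the sphingosine phosphate receptor of lymph node egress, stood at 30.98 against 106 CPM (-1.39 ± 0.28, adjusted p = 0.000249, likelihood ratio 0.0299). Klf3, a relative of Klf2, stood at 20.7 against 124 CPM (-2.07 ± 0.29, adjusted p = 9.11e-09, likelihood ratio 1.64e-05) and was called also with 1 cell per clone (-2.05) and with cells thinned (-1.63). Tcf7, the TCF-1 gene of stem-like and resting T cells, stood at 25.8 against 78.3 CPM (-1.25 ± 0.28, adjusted p = 0.00284), but did not pass the likelihood ratio test (0.0785).

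Other genes lower in expanded clones encode adhesion and signaling proteins. Trat1, an adaptor of the T cell receptor complex, stood at 15.5 against 126 CPM (log2 fold change -2.17 ± 0.31, edgeR adjusted p = 9.11e-09, likelihood ratio 0.000616), with a UMI in 4.84% of expanded and 29.4% of single cells. Cd226, the activating receptor that shares its ligands with TIGIT, stood at 38.2 against 144 CPM (-1.57 ± 0.27, adjusted p = 1.21e-05, likelihood ratio 0.00117). Cd96, another receptor of this group, stood at 68.2 against 138 CPM (-0.98, adjusted p = 0.0237, likelihood ratio 0.0917). Itgb1, the beta-1 integrin chain, stood at 150 against 364 CPM (-1.25 ± 0.28, adjusted p = 0.00188, likelihood ratio 0.0424). Aff3, a nuclear elongation factor, stood at 22.7 against 121 CPM (-1.88 ± 0.31, adjusted p = 1.11e-06, likelihood ratio 0.0113). Rasgrp2, the exchange factor that activates Rap1 in integrin control, stood at 7.23 against 46.1 CPM, and Cpm, a membrane carboxypeptidase, at 7.23 against 47.6 CPM. Both passed both tests (likelihood ratio 0.0283 and 0.0497). Gpr183, the oxysterol receptor that positions lymphocytes, and Lta, lymphotoxin alpha, were called at 44.4 against 112 CPM and 15.5 against 56.8 CPM, but not by the likelihood ratio test (0.0502 and 0.114). Klrg1 and Il1rl1, which encode KLRG1 and the IL-33 receptor ST2 of tissue Treg cells, were lower by the quasi-likelihood test at 12.4 against 59.9 CPM and 14.5 against 56.8 CPM, with likelihood ratio values of 0.527 and 0.684. The unannotated gene Gm2682, chosen after its values were seen, fell from 362 CPM in single to 52.7 CPM in expanded cells (-2.48 ± 0.34, adjusted p = 2.27e-09, likelihood ratio 1.04e-05) and was found in 8.87% against 48.1% of cells.

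For the called genes, clones of 2 or 3 cells mostly lay between the other classes. In clones of 1, 2 to 3, 4 to 7 and at least 8 cells, Klf2 stood at 233, 139, 61.6 and 58.1 CPM, Klf3 at 124, 66.1, 23.7 and 19.8 CPM, and Trat1 at 126, 59.5, 28.4 and 11.9 CPM. Of the 35 lower genes 30 had their level in clones of 2 or 3 cells between that of single and expanded clones, and of the 63 higher genes 50 did. These genes were called because expanded and single clones were far apart, which by itself favors a level between them. The share over all tested genes was not computed, so these counts show no graded change. These classes held 160, 79, 58 and 190 cells, and their order was not tested. On either side of the size limit, clones of 3 and of 4 cells (32 and 18 Treg cells) had Klf2 at 42.2 and 34.6 CPM and Itgae at 203 and 363 CPM.

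**Figure D4:**
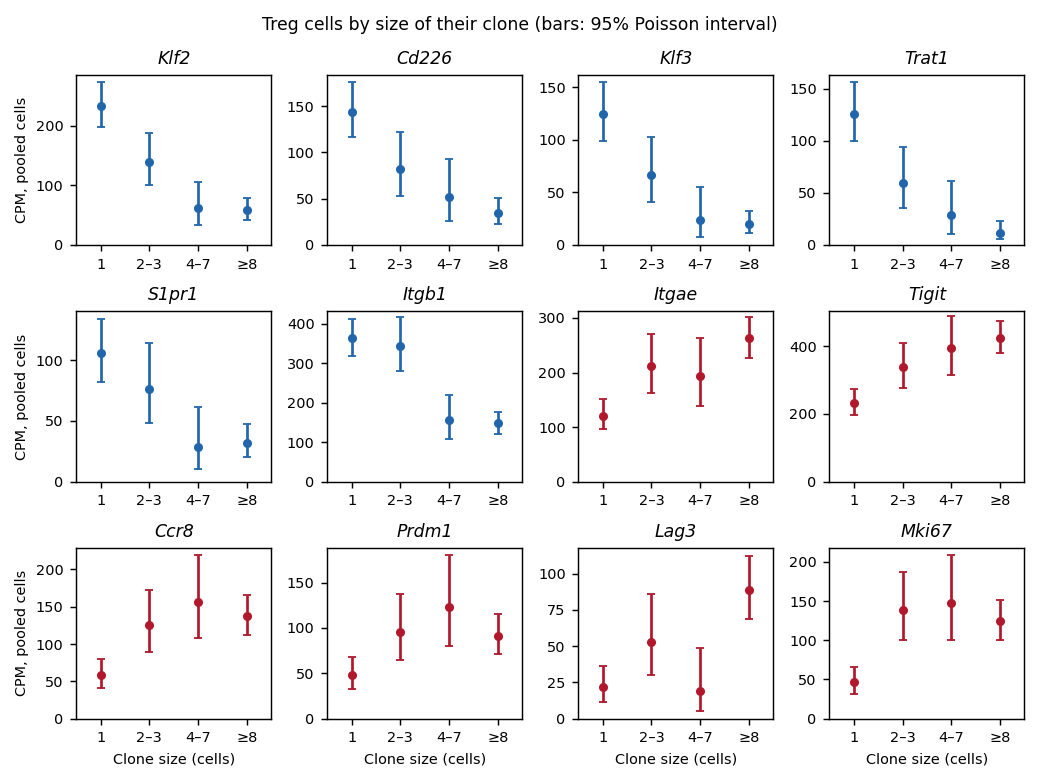
Pooled level in CPM (y axis) of 12 named genes in Treg cells from clones of 1, 2 to 3, 4 to 7 and at least 8 cells (x axis), with 95% Poisson intervals that cover counting error only. Klf2 goes from 233 to 58.1 CPM and Tigit from 233 to 425 CPM, while Lag3 dips to 19.0 CPM in clones of 4 to 7 cells.

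Some checkpoint and residency genes were higher in the expanded clones by the quasi-likelihood test, and fewer by the likelihood ratio test. Of 10 genes listed as checkpoint receptors 8 were tested, with Lag3 and Tigit higher and Cd96 lower, and 0 called by the likelihood ratio test (3 had an unadjusted p under 0.05 by the quasi-likelihood test). Tigit, an inhibitory receptor of effector Treg cells, stood at 418 against 233 CPM and was found in 65.3% of expanded and 48.1% of single cells (log2 fold change 0.80 ± 0.22, edgeR adjusted p = 0.0323, likelihood ratio 0.0966). Lag3, a ligand of MHC class II with inhibitory function, stood at 73.3 against 21.5 CPM (1.29 ± 0.24, adjusted p = 0.000633, likelihood ratio 0.0629). Of 18 genes listed for tissue residency and TGF-beta, 16 were tested, with 3 higher, 1 lower (Itgb1) and a median of 0.12. Itgae, the CD103 chain that binds E-cadherin, stood at 248 against 121 CPM and was found in 41.1% of expanded and 23.8% of single cells (0.88 ± 0.25, adjusted p = 0.0356, likelihood ratio 0.314). Itgb8, the integrin chain with which Treg cells activate TGF-beta, stood at 159 against 59.9 CPM (1.06 ± 0.23, adjusted p = 0.00169, likelihood ratio 0.114). Prdm1, encoding the effector factor Blimp-1, stood at 98.1 against 47.6 CPM and passed both tests (1.03 ± 0.24, adjusted p = 0.0234, likelihood ratio 0.0462).

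Ccr8, the chemokine receptor of tumor Treg cells, stood at 141 against 58.3 CPM (1.07 ± 0.25, edgeR adjusted p = 0.00431, likelihood ratio 0.296). Among 16 chemokine and migration receptors 11 were tested, and Ccr8 was the 1 called higher, with S1pr1 and Ccr6 (14.5 against 47.6 CPM, likelihood ratio 0.461) lower and a median of -0.45. Of 30 effector Treg genes 27 were tested, with Lag3, Ccr8, Prdm1 and Tigit higher, Klrg1 and Il1rl1 lower, and a median of 0.26. Il1r2, the decoy receptor for IL-1, stood at 88.8 against 20.0 CPM and passed both tests (1.68 ± 0.27, adjusted p = 1.69e-06, likelihood ratio 0.0342). Cep112, a centrosomal protein gene, stood at 105 against 27.6 CPM (1.32 ± 0.25, adjusted p = 9.98e-05, likelihood ratio 0.0672) and was found in 24.2% of expanded and 8.12% of single cells.

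T cell receptor response genes were higher for some members. Of 22 listed targets of receptor signaling 17 were tested, 4 were higher (Nr4a1, Nfkbid, Egr1 and Rgs16), 0 were lower, and their median was 0.17. Nr4a1, the immediate early gene of the Nur77 receptor, stood at 109 against 13.8 CPM (log2 fold change 2.17 ± 0.30, edgeR adjusted p = 2.27e-09, likelihood ratio 0.000262), but 1 cell gave 43 of its 106 UMIs in expanded clones. Nfkbid, a nuclear regulator of NF-kB, stood at 79.5 against 24.6 CPM (1.43 ± 0.27, edgeR adjusted p = 0.000513, likelihood ratio 0.0299). It was found in 13.7% of expanded and 8.12% of single cells (6.45% and 2.5% after thinning). One cell gave 15 of its 77 UMIs in expanded clones, and 1 clone gave 33.8%. Egr1, an immediate early transcription factor, stood at 94.0 against 43.0 CPM and Rgs16, a regulator of G protein signaling, at 156 against 52.2 CPM. Neither passed the likelihood ratio test (0.0534 and 0.438). Of the 7 clones with most Treg cells, Egr1 lay above the single-cell level in 2, Nfkbid in 3, Nr4a1 in 5 and Rgs16 in 7. In clones of 2 or 3 cells Nr4a1 (6.61 CPM) and Nfkbid (16.5 CPM) lay below single cells. Egr1 (46.3 CPM) and Rgs16 (85.9 CPM) lay above them there.

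A few proliferation genes were higher, with many of their UMIs in few cells. Of 18 cell cycle genes 11 were tested, with Stmn1, Mki67 and Top2a higher, 0 lower and a median of 0.43. Mki67, the Ki-67 antigen, stood at 129 against 46.1 CPM (log2 fold change 1.43 ± 0.26, edgeR adjusted p = 3.95e-05, likelihood ratio 0.0299), and 1 cell gave 27.2% of its expanded UMIs. The share of cells with a Mki67 UMI was 15.7% in expanded and 15% in single clones (4.84% and 4.38% after thinning). Stmn1, a microtubule regulator, stood at 113 against 29.2 CPM (1.87 ± 0.30, adjusted p = 5.52e-07, likelihood ratio 0.00117), and Top2a, topoisomerase II alpha, at 101 against 52.2 CPM (1.01, adjusted p = 0.0349, likelihood ratio 0.355). The linker histone gene H1f5 had the largest rise among the named genes, at 149 against 21.5 CPM (2.84 ± 0.33, adjusted p = 7.86e-13, likelihood ratio 3.72e-07), with 58 of its 144 UMIs in 1 cell. The core histone gene H2ac8 was alike at 96.0 against 20.0 CPM, with 54.8% of its UMIs in 1 cell and a UMI in 5.24% of expanded and 6.88% of single cells. H4c4 also passed both tests (82.6 against 32.2 CPM, likelihood ratio 0.0421) and H2ac20 passed the quasi-likelihood test (76.4 against 27.6 CPM, likelihood ratio 0.114). Mki67 and H1f5 were not ordered by size, at 139 and 241 CPM in clones of 2 or 3 cells. In all, 16 of the 63 higher genes had over 25% of their expanded UMIs in 1 cell.

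No Treg identity gene passed the test. Of 16 listed genes, which do not include Foxp3, 15 were tested, Gpr83 having too few UMIs, and 0 were called by either edgeR test (4 had an unadjusted p under 0.05), with a median log2 fold change of 0.15. Over all tested genes 1.26% were called by the quasi-likelihood test, so 0 of 15 is near that share. Ikzf2 had a log2 fold change of 0.20 (adjusted p = 0.843). Ctla4, the inhibitory receptor, stood at 529 against 490 CPM (0.39, adjusted p = 0.584). Il2ra, the IL-2 receptor alpha chain, stood at 203 against 319 CPM (-0.63, adjusted p = 0.373). The TNF receptor family genes Tnfrsf4 and Tnfrsf18, which encode OX40 and GITR, had log2 fold changes of 0.15 and 0.03. Of the other lists, 31 interferon-stimulated genes (median 0.02), 14 genes of MHC class I (0.04), 11 of the TNF receptor family (-0.06), 7 helper lineage factors (-0.07) and 4 cytotoxicity genes (0.27) were tested with 0 called in either direction by edgeR, and 4, 0, 2, 1 and 2 of them had an unadjusted p under 0.05. In lists of this size 0 calls are near the share over all tested genes.

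Transcripts of microglia and of MHC class II had higher pooled levels in expanded Treg cells, and those of the C1q genes, H2-Ab1 and H2-Eb1 lay in few cells. Of 7 microglia markers 4 were tested, and the complement genes C1qa, C1qb and C1qc were called higher, C1qc alone also by the likelihood ratio test (0.137 for C1qa and 0.115 for C1qb). C1qc stood at 161 against 6.14 CPM (log2 fold change 2.48, edgeR adjusted p = 3.57e-16, likelihood ratio 0.00264), with 134 of its 156 UMIs in 1 cell. The same cell gave 145 of 167 UMIs of C1qa, called also, which was found in 6.85% of expanded and 6.25% of single cells, and 131 of 166 UMIs of C1qb, found in 8.06% and 5.00%. It had 17738 UMIs in all, 15 of Tmem119 and 30 of P2ry12, 1 of Foxp3 and 4 of Cd3e, and belonged to a clone of 45 cells. The summed level of the microglia list was 1435 CPM in expanded and 700 CPM in single cells, and ran over clones from 229 to 5224 CPM and from 0 to 2826 CPM. The MHC class II genes H2-Eb1 (706 against 192 CPM, adjusted p = 0.00149, likelihood ratio 0.0798), H2-Ab1 (627 against 172 CPM, 0.00101 and 0.0785) and Cd74 (2969 against 1472 CPM, 0.028 and 0.0798) were called as well. In single clones 1 cell gave 75 of 112 UMIs of H2-Ab1 and 88 of 125 of H2-Eb1, and in expanded clones the largest share was 139 of 607 and 147 of 684, so the pooled levels rest on few cells in both classes. H2-Ab1 was found in 5.24% of expanded and 6.88% of single cells. Cd74 was found more widely, in 48.8% of expanded and 39.4% of single Treg cells. In expanded and single conventional CD4 clones 5.26% and 7.82% of cells had a Cd74 UMI. In the 7 clones with most Treg cells H2-Ab1 was 0 in 2 clones and between 930 and 1628 CPM in 4.

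Summed markers of monocytes (168 and 146 CPM), B cells (176 and 143 CPM), dendritic cells (75.4 and 30.7 CPM) and oligodendrocytes (118 and 123 CPM) were low in both classes, plasma cell immunoglobulin transcripts stood at 9637 and 12177 CPM, and all markers of neutrophils, NK cells and erythroid cells were at 0. At least 5 UMIs summed over C1q, MHC class II, Lyz2 and Cd79a genes were found in 16 expanded (6.45%) and 6 single cells (3.75%). Without these cells 88 genes were called, and of the 98 calls 86 could be tested and 67 were kept. Without every clone with any Cd8 UMI, which left 15 expanded clones with 66 Treg cells, 29 were called. In the latter setting 23 of the 98 calls were kept and 90 kept their direction. There C1qa, C1qb, H2-Eb1 and H2-Ab1 had negative fold changes (-0.0350 to -2.29), while Klf2 (-1.88), Klf3 (-2.13), Trat1 (-2.07), Cd226 (-1.76) and Mki67 (1.49) were still called. No doublet caller was run, and the part of these transcripts in the other results was not tested further.

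The largest Treg clones were set beside each other to see how far they shared these differences, as a description of the clones that made the calls. Among the 7 clones with 13 or more Treg cells, 24 of the 35 lower genes were below the single-cell level in all 7 and 34 in at least 6, against 17 and 32 of the 63 higher genes above it. In the clones with 51, 33, 20, 17, 15, 13 and 13 Treg cells Klf2 stood at 66.8, 44.3, 23.7, 49.0, 52.5, 10.8 and 243 CPM, so that the last was above the single-cell level of 233 CPM. Itgae varied more, at 390, 103, 296, 245, 193, 64.6 and 530 CPM, and was under the single-cell level of 121 CPM in 2 clones. Ccr8 stood at 66.8, 229, 166, 261, 210, 118 and 0 CPM. Nr4a1 was high in 2 clones, at 421 and 140 CPM, and at or under 21.5 CPM in the others.

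**Figure D5:**
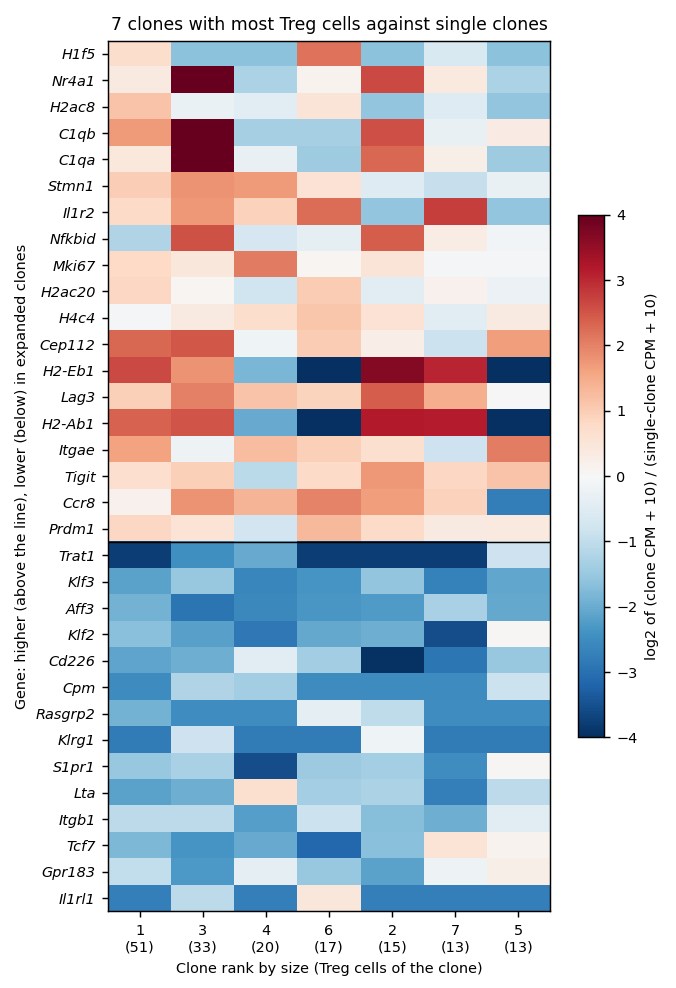
Log2 ratio of the level in each of the 7 clones with most Treg cells (columns, rank by size and number of Treg cells) to the pooled level in single Treg clones, both plus 10 CPM, for the named genes (rows; higher genes above the line, lower genes below). Klf3 and Aff3 are blue in all 7 columns, while H2-Ab1 runs from 0 to 1628 CPM between clones.

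Conventional CD4+ cells were compared in the same library to ask which differences were particular to Treg clones. A conventional clone of 1 cell meets the rule of no Foxp3 UMI in any cell more easily than a larger clone. What this did to the comparison was not tested. The 41 expanded and 537 single conventional clones (190 and 537 cells) differed at 45 genes (0.576%), 31 higher (0.397%) and 14 lower (0.179%), by the edgeR quasi-likelihood test. The difference between the Treg and the conventional change was tested as an interaction and called for 26 genes (0.333%), 18 higher (0.231%) and 8 lower (0.102%) in Treg clones, of which 21 were also among the 98. By the likelihood ratio test 2 genes passed, Klf3 (difference -1.72 ± 0.36 on the log2 scale, adjusted p = 0.00211, likelihood ratio 0.0316) and Gm2682 (-2.04 ± 0.37, adjusted p = 9.29e-05, likelihood ratio 0.00011). With 1 cell per clone the quasi-likelihood interaction called 7 genes higher and 0 lower, so neither Klf3 nor Gm2682 was called as lower there. Klf3 had a log2 fold change of -0.21 in conventional clones (adjusted p = 0.938) against -2.07 in Treg clones. Klf2 was not shown to differ between the cell types (difference -1.54, adjusted p = 0.0744). Klf2 stood at 58.9 and 233 CPM in expanded and single Treg cells, both below the 379 and 568 CPM of expanded and single conventional cells.

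The other receptor libraries held too few Treg cells for the comparison. That labeled mavrilimumab 1 gave 49 Treg cells in 46 clones, none of them expanded, 3 of 2 or 3 cells and 43 single, and that labeled vehicle IgG 1 gave 11 Treg cells, all single. The first shared 2645 of its 2749 cell barcodes with the expression library labeled mavrilimumab 2. The second shared 187 of 193 with the expression library labeled vehicle IgG 1. The sample names inside both receptor tables go against their labels. The single Treg cells of these libraries had Klf2 at 611 and 738 CPM, against 233 CPM in the single Treg cells described above, Klf3 at 281 and 259 CPM (against 124 CPM), and Lag3 at 10.2 and 4.79 CPM (against 21.5 CPM). Itgae stood at 192 and 47.9 CPM, Ccr8 at 105 and 23.9 CPM, and Mki67 at 38.4 and 316 CPM. The pooled levels of these single Treg cells thus were unlike between libraries, and they say nothing on expansion. With 43 and 11 cells, and libraries and treatment that cannot be told apart, no test was made.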

How the data were processed

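Leukocytes from mouse ependymomas had been sequenced for gene expression (10x) in 4 libraries and for T cell receptors in 3 that are used here. The authors deposited unfiltered UMI counts per gene and barcode (33696 genes), and their headers name Cell Ranger 9.0.1. The submitters' processing notes list mm10, Cell Ranger 7 and 7.1.0, and Scanpy 1.8.2. The receptor tables give contigs with CDR3 bases, segments and UMI numbers. The receptor table of the sample labeled vehicle IgG 2 was not analysed here.

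Libraries were joined by cell barcode. Cells, clones and classes follow the rule given above. The members and gene lists were chosen with earlier results of these data known. No doublet caller was run, but cells with more than 1 chain of a kind were left out. UMIs of each clone's Treg cells were summed, scaled by the clone's total and tested with edgeR 4.0.16 (quasi-likelihood test, R 4.3.3) over genes with a UMI in at least 5% of Treg cells, without Foxp3, Cd8a, Cd8b1 and receptor segment genes. Fold changes are edgeR's, shrunken by its prior count, and SE is the fold change over the root of F. The interaction model added conventional CD4 clones. On simulated counts the quasi-likelihood test called some unchanged genes with strongly variable counts, and the likelihood ratio test called fewer, so both are given. Intervals are exact 95% binomial ones, and they and Poisson intervals cover counting error only. UMIs per cell were compared with 100000 permutations of clones (scipy 1.17.1), segments with Fisher's exact test.

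The genes named are the 15 highest and the 15 lowest by fold change among those at an adjusted p below 0.05 and at least 20 CPM over clones (without receptor, mitochondrial, ribosomal and predicted genes), plus members of the lists that passed (1 of them is not reported here) and up to 4 of each list that did not. Alternatives changed scaling, tool, filter, depth, the limits for Treg cells and expansion, and the clones used (DESeq2 1.42.0, limma 3.58.1).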

Additional observations from a re-analysis of the deposited data

Results flagged for a closer look

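Genes are given here because their change between expanded and single clones differed between Treg and conventional CD4+ cells by the edgeR interaction test (adjusted p below 0.05). Values are the Treg change minus the conventional change on the log2 scale. Lower in Treg clones by this measure were Klf3 (-1.72), Aff3 (-1.58), Itgb1 (-1.44), Trat1 (-1.44) and Rasgrp2 (-1.05), and of these Klf3 also passed the likelihood ratio test. Higher were the histone genes H1f5 (3.45), H2ac8 (3.32), H2ac20 (1.65) and H4c4 (1.55) and the proliferation genes Stmn1 (2.57), Top2a (2.10) and Mki67 (1.53). For H2ac8 and Top2a part of the difference was a lower level in expanded conventional clones, which was itself called (log2 fold change -1.35 and -1.11, adjusted p = 6e-06 and 0.0113). The chemokine receptor gene Ccr8 (1.49) and the integrin gene Itgae (1.39) were higher as well, as were C1qa (1.61), C1qc (1.47) and H2-Eb1 (1.80), genes of microglia and antigen-presenting cells. In conventional cells Ccr8 stood at 11.3 CPM in expanded and 22.3 CPM in single clones, and Itgae at 1.41 and 12.9 CPM. Part of the difference for Ccr8 and Itgae thus lay on the conventional side. Both genes entered the test through their share of Treg cells and were near the floor in conventional cells. Their interaction calls therefore say little on change in conventional clones. None of the higher genes passed the likelihood ratio test.

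Receptors of the library labeled vehicle IgG 1, which entered no test, were looked up among the clones described. The sample name inside its receptor table is that of a mavrilimumab sample, against its label, so its treatment is uncertain too. Of its 143 clones 8 (5.59%) had the same CDR3 bases and segments in both chains as a clone of the receptor library labeled mavrilimumab 2, which is 0.352% of the 2275 clones there, while the 2 libraries shared 0 cell barcodes. One of the 8 was an expanded Treg clone, that of 36 cells, with 1 Treg cell in the other library. The library labeled mavrilimumab 1 shared 0 of its 1639 clones.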

How the results depend on the processing

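Against 98 genes called (64.3% of them higher), the count was 154 without a filter on low genes (of 14538), 61 with the filter at 10% of cells (of 5666), 149 with UMIs per cell as a covariate, 34 by the likelihood ratio test (52.9% higher), 29 without clones with a Cd8 UMI, 17 with cells thinned to 1000 UMIs (of 3856 genes, 35.3% higher) and 13 with 1 cell per clone (76.9% higher). Limma on clone means called 0 (113 with an unadjusted p under 0.05), and 0 after thinning (47). With other scalings or tools the median log2 fold change of all genes moved, for a reason that was not tested. It was 0.88 with TMMwsp factors (6780 called) and 1.29 with DESeq2 size factors in edgeR (7604). The DESeq2 Wald test gave 1.06 (3670) and limma-voom -1.26 (7131). Of the calls 99.9% were higher by TMMwsp and 0.196% by limma-voom. One TMM factor between the pooled classes gave 95. The other 9 settings gave 74 to 101 calls, with 74.4% higher where a Treg cell needed at least 2 Foxp3 UMIs. The likelihood ratio tests, limma on clone means (thinned or not), the pooled TMM factor and leaving out clones with a Cd8 UMI or cells with other-lineage UMIs were chosen after seeing the data.

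Signs turned for few named genes. Relative to the median, limma-voom gave H2ac8 -0.12, H2ac20 -0.0628, C1qa -0.23, C1qb -0.17, C1qc -0.14 and Itgb1 0.15. With 1 cell per clone C1qa was -0.63, H2-Eb1 -1.53 and H2-Ab1 -1.46, and without clones with a Cd8 UMI C1qa was -0.0350, C1qb -0.46, H2-Eb1 -2.29 and H2-Ab1 -1.37. The cause was not tested. The interaction called 26 genes, 6 after thinning (1 higher and 5 lower), 7 with 1 cell per clone (7 higher and 0 lower) and 2 by the likelihood ratio test. With 1 cell per clone Klf3 and Gm2682 were thus not called as lower. With clones of at least 2 cells as expanded, UMIs per cell differed by -0.18 (permutation p = 0.0404), and 0 V segments passed (Fisher's exact test; 2 had an unadjusted p under 0.05). No paired analysis was possible because the classes are clones of 1 library. The second library had no expanded Treg clone, so its comparison and alternatives gave no value.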
